A study of Arabidopsis thaliana with 6 samples.

Results

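Superoxide dismutases convert the superoxide radical into hydrogen peroxide and oxygen, and plants carry forms that use iron, manganese, or copper with zinc at the active site. Described here are the transcripts of 9 Arabidopsis thaliana genes of this system, chosen by identifier out of 33532 in the table. They are the iron enzymes FSD1, FSD2 and FSD3, the copper/zinc enzymes CSD1 and CSD2, the manganese enzyme MSD1, the chaperone CCS that loads copper into the copper/zinc enzymes, the copper transporter COPT2, and SPL7, the transcription factor that switches on copper-saving genes.

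In Arabidopsis, copper shortage is known to activate SPL7, which raises FSD1, copper importers such as COPT2, and microRNAs including miR398, miR397, miR408 and miR857. Of these, miR398 lowers CSD1, CSD2 and CCS, so that iron enzyme replaces copper/zinc enzyme and copper is left for plastocyanin. FSD2 and FSD3 sit in plastid nucleoids as partners of the plastid-encoded RNA polymerase, FSD1 is found in the plastid stroma and outside it, CSD1 in the cytosol, CSD2 in the plastid and MSD1 in mitochondria.

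The libraries came from whole seedlings of the Col-0 accession, all of wild-type genotype. All grew for 10 days on solid Murashige and Skoog medium (1/2 MS in the labels), 3 without doxycycline as controls and 3 with 5 µg/mL doxycycline, an antibiotic that blocks the bacterial-type ribosomes of mitochondria and plastids. The series title frames the comparison as a question about impaired mitochondrial translation. The design text calls the 3 libraries of a group biological replicates without naming separate plates or harvests, so p-values measure the spread between these libraries, which may be partly technical. Values are FPKM, fragments scaled by transcript length and library total, so that levels can be compared between genes.

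The controls were unlike each other: control 1 correlated with the doxycycline libraries at 0.961 to 0.964 across genes on the log2 scale, and with controls 2 and 3 at 0.831 and 0.867. Depth, read from the smallest values, was an estimated 18500000 to 21900000 fragments per library. The 6 green tissue markers summed to 38244, 12213 and 23315 FPKM in controls 1 to 3 and to 35079 to 39587 FPKM with doxycycline, 2 of them above every control (9.59% of all genes tested) and 1 below (25.7%). The 10 root markers summed to 11.1, 28.8 and 62.9 FPKM in the controls and to 13.5 to 23.5 FPKM with doxycycline, and of the 7 tested 0 were separated in either direction. Of these 7, RHD6 and PRP3 passed the 1 FPKM filter only through their controls. The separated green tissue markers were LHCB6 (2869, 852 and 1537 FPKM against 4191 to 4640 FPKM), LHCB1.1 (7906, 1433 and 2989 FPKM against 9085 to 9260 FPKM) and RBCS2B (2148, 1207 and 2754 FPKM against 908 to 1047 FPKM). The root marker PRP3 stood at 2.23, 0.862 and 14.9 FPKM in controls and at 0.45 to 1.58 FPKM with doxycycline, high in control 3 alone. No organ marker was at 0 in every library. In whole seedlings, fewer cells of a type and less RNA per cell cannot be told apart.

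The regulatory sequences by which the copper/zinc genes and the copper microRNAs are tied together are shown first, ahead of the values. They were read from the RefSeq copy of assembly TAIR10.1, which held all 9 genes, and coordinates are those of that assembly. The mature microRNAs, with their seed (bases 2 to 8) in capitals, show that the miR398 forms share the seed GUGUUCU and that miR397a and miR397b share CAUUGAG.
ath-miR398a-3p: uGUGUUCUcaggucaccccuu
ath-miR398b-3p and ath-miR398c-3p: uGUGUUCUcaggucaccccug
ath-miR397a: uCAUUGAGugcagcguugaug
ath-miR397b: uCAUUGAGugcaucguugaug

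The best-pairing miR398 stretch of each transcript is given in DNA letters for the 3 members with the lowest pairing cost and for AT3G15640, annotated with cytochrome c oxidase activity, from the list of targets of copper microRNAs. Capitals mark bases that pair with the microRNA. The cost was 1 for a mismatch, 0.5 for a G:U pair and 2 for a bulge.
CSD1: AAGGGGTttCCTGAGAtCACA
CSD2: tgcGGGTGACCTGgGAAACA
CCS: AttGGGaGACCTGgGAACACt
AT3G15640: AAGGtGTGACCTGAGAAtCACA

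The CSD1 stretch (chr1:2827177-2827685, plus strand) lay in the 5′ untranslated region and ran across an intron, with 18 paired bases and a cost of 3. A cost that low was found in 4 of 31340 loci with an mRNA model (0.0128%), AT3G15640 (chr3:5299204-5299225, plus strand) among them. The CSD2 stretch (chr2:12015572-12015591, plus strand) and the CCS stretch (chr1:4267521-4267541, minus strand) lay in coding sequence, each with 16 paired bases and a cost of 4.5, a value reached or undercut in 88 loci (0.281%). In the other 6 members the lowest cost ran from 5.5 in FSD1 to 8 in COPT2, and 4.06% to 91.7% of loci did as well. A match of letters is a description and not a measured cleavage site.

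FSD1 (AT4G25100) was by far the most abundant superoxide dismutase transcript. It stood at 920, 953 and 954 FPKM without doxycycline, against 1125, 1220 and 1225 FPKM with it, ranking between 41st and 80th of 33532 genes. The groups did not overlap, and the spread within each group was small (942 ± 19.5 against 1190 ± 56.2 FPKM; SD, n = 3 each). The log2 difference between doxycycline and control, on the log2(FPKM + 1) scale used throughout, was 0.34 (SE 0.26), with an adjusted p of 0.404 from limma with Benjamini-Hochberg adjustment. The direction held on the deposited scale and after median-of-ratios scaling (0.67), but turned to -0.08 after quantile normalization.

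FSD2 (AT5G51100) stood at 12.4, 11.6 and 9.18 FPKM in controls 1 to 3, compared with 26.7, 25.3 and 28.7 FPKM in the treated libraries. Every doxycycline library was at least 2.05 times as high as every control. The log2 difference was 1.22 (SE 0.18; limma, adjusted p = 0.121), and it was 1.06, 1.15 and 1.46 against controls 1, 2 and 3 taken singly.

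FSD3 (AT5G23310), the partner of FSD2 in the plastid nucleoid, stood at 18.3, 18.4 and 14.7 FPKM untreated, versus 38.7, 39.4 and 32.6 FPKM treated. Again the groups were apart, by at least 1.78 times between the closest libraries. Its log2 difference was 1.07 (SE 0.18; limma, adjusted p = 0.121). In control 1 the summed green tissue markers were within the doxycycline range, but single markers were not. LHCB6 and LHCB1.1 were below their own doxycycline ranges, and RBCS2B and RBCS1A above theirs. RBCS1A, the largest of them, was at 14208 FPKM there against 9318 to 13338 FPKM with doxycycline. The part of green tissue content in the FSD2 and FSD3 values was not tested.

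**Figure D1:**
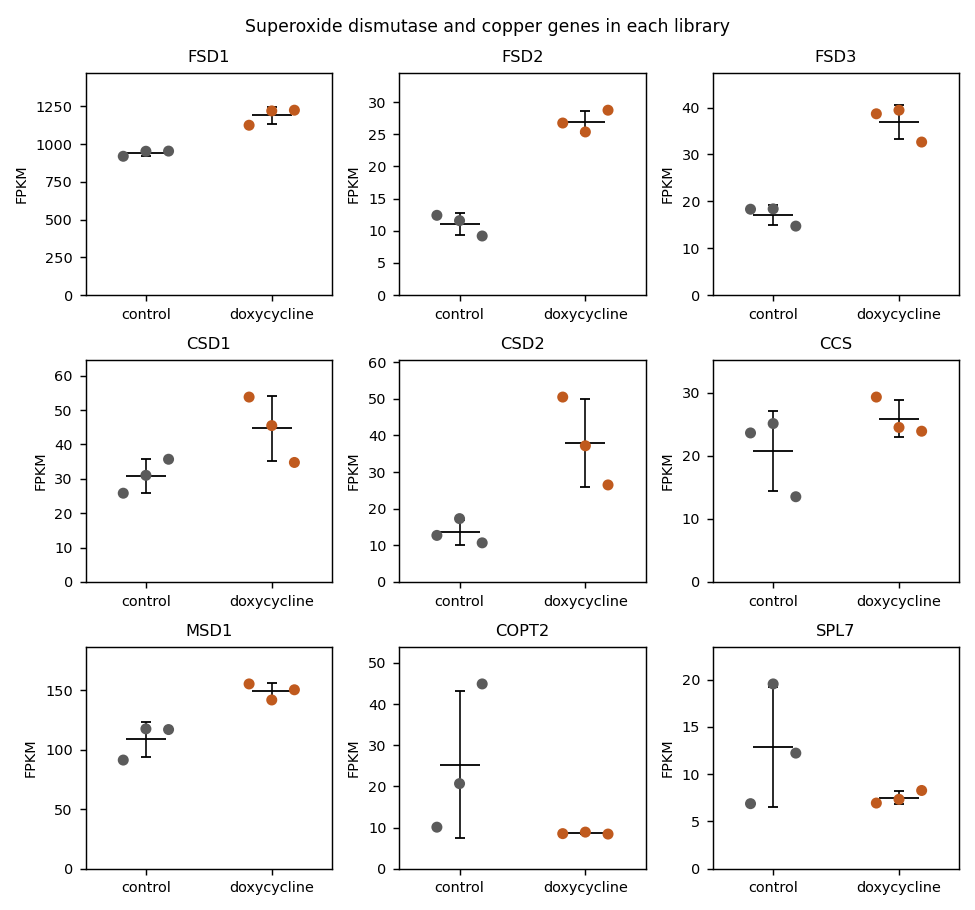
FPKM of the 9 genes in each library; points are libraries in replicate order, horizontal bars the group means and whiskers the SD (n = 3), on linear axes that start at 0. FSD1, FSD2, FSD3, CSD2 and MSD1 lie above every control with doxycycline, COPT2 lies below every control, and CSD1, CCS and SPL7 overlap.

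CSD2 (AT2G28190), the plastid copper/zinc enzyme, had the largest difference of the superoxide dismutases with all libraries, but not without doxycycline library 1 (log2 difference 1.18, beside 1.23 for FSD2). It stood at 12.7, 17.3 and 10.7 FPKM without doxycycline, against 50.5, 37.2 and 26.5 FPKM with it. All doxycycline libraries were above all controls, by at least 1.53 times between the closest, and they spread widely among themselves (38.0 ± 12.0 against 13.5 ± 3.39 FPKM; SD, n = 3 each). The log2 difference was 1.40 (SE 0.29; limma, adjusted p = 0.121).

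CSD1 (AT1G08830), the cytosolic copper/zinc enzyme, stood at 25.8, 31.0 and 35.7 FPKM in controls 1 to 3, compared with 53.8, 45.5 and 34.8 FPKM in the treated libraries. Doxycycline library 3 lay inside the control range, so the groups overlapped on the deposited scale, and they did not overlap after median-of-ratios scaling or quantile normalization. This gave a log2 difference of 0.51 (SE 0.22; limma, adjusted p = 0.203).

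CCS (AT1G12520), which delivers copper to both enzymes, stood at 23.7, 25.1 and 13.5 FPKM untreated, versus 29.3, 24.5 and 23.9 FPKM treated. The ranges overlapped, with control 3 alone far below the rest. Its log2 difference was 0.35 (SE 0.26; limma, adjusted p = 0.395), of which 0.12 and 0.04 remained against controls 1 and 2 taken singly and 0.89 against control 3.

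MSD1 (AT3G10920), the mitochondrial manganese enzyme, was the second most abundant of the superoxide dismutases. It stood at 91.2, 117 and 117 FPKM without doxycycline, against 155, 142 and 150 FPKM with it. The groups did not overlap, with at least 1.21 times between the closest libraries. This gave a log2 difference of 0.46 (SE 0.19; limma, adjusted p = 0.182).

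COPT2 (AT3G46900), a plasma membrane copper importer, stood at 10.1, 20.7 and 44.9 FPKM in controls 1 to 3, compared with 8.53, 8.90 and 8.43 FPKM in the treated libraries. All doxycycline libraries were below all controls, but control 1 only by a factor of 1.13 and control 3 by far more. The log2 difference was -1.21 (SE 0.47; limma, adjusted p = 0.178), and it was -0.21, -1.17 and -2.25 against controls 1, 2 and 3 taken singly. COPT2 and the summed root markers had the same order in the 3 controls, but not in the doxycycline libraries. There the root markers were above control 1 (13.5 to 23.5 against 11.1 FPKM), while COPT2 was below it. The part of root content in the COPT2 values was not tested.

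SPL7 (AT5G18830) stood at 6.88, 19.5 and 12.2 FPKM untreated, versus 6.95, 7.34 and 8.28 FPKM treated. The doxycycline libraries lay just above control 1 and below controls 2 and 3. Its log2 difference was -0.60 (SE 0.35; limma, adjusted p = 0.290), and it was 0.11 against control 1 taken singly.

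**Figure D2:**
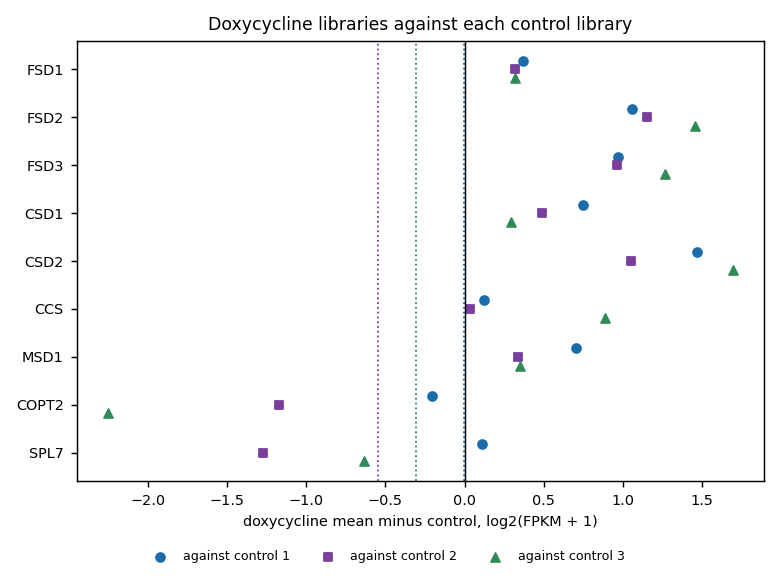
Mean of the doxycycline libraries minus each control library, in log2(FPKM + 1), for the 9 genes; circles, squares and triangles are controls 1, 2 and 3, and dotted lines the median of all 19035 genes tested against the same control (0.00, -0.54 and -0.30). The 7 enzyme and chaperone genes lie right of 0 against every control, COPT2 lies left of 0 against every control, and SPL7 changes side with control 1.

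Counted together, 5 of the 9 genes were above every control in all doxycycline libraries, where 9.59% of all 19035 genes tested were, and 1 was below every control, where 25.7% were. The median log2 difference was 0.46 over the 9 genes and -0.29 over all genes tested. After median-of-ratios scaling, which brought the median of all genes to 0.00, 6 were above (18.0% of all genes) and 1 below (17.2%), with a median of 0.79. After quantile normalization 5 were above (17.2% of all genes), with CSD1 in place of FSD1, and 1 below (16.7%). None of the 9 passed an adjusted p of 0.05 with limma, as was the case for all 19035 genes (0%), and the lowest adjusted p of any gene was 0.121. At an unadjusted p under 0.05 limma had FSD2, FSD3, CSD2 and MSD1 higher (6.83% of all genes) and COPT2 lower (18.8%).

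The count of calls turned on control 1. Without it limma called FSD2 (adjusted p = 0.00255), FSD3 (adjusted p = 0.00439) and CSD2 (adjusted p = 0.0157) higher, where 9.77% of all genes were. COPT2 (adjusted p = 0.00778) and SPL7 (adjusted p = 0.0174) were called lower, where 35.6% of all genes were. With control 1 as the only control, limma called FSD2 (adjusted p = 0.0155), FSD3 (adjusted p = 0.0225), MSD1 (adjusted p = 0.0255) and CSD2 (adjusted p = 0.0416) higher, where 6.78% of all genes were, and 0 members lower, where 4.75% were. That fit has to take the spread of its single control from the doxycycline libraries. FSD2, FSD3 and CSD2 were called in both fits, which share the doxycycline libraries.

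Ratios between members within a library do not change when a library is multiplied by a single factor, and they were not computed after quantile normalization. FSD2 per FSD1 was 0.0135, 0.0121 and 0.00962 in the controls and 0.0238, 0.0208 and 0.0235 with doxycycline, and FSD3 per FSD1 was 0.0154 to 0.0199 in controls and 0.0266 to 0.0344 with doxycycline. CSD2 per CSD1 was 0.492, 0.557 and 0.299 in the controls and 0.939, 0.817 and 0.762 with doxycycline. CSD2 per CCS was 0.537 to 0.789 and 1.11 to 1.72. In each of these 4 ratios every doxycycline library was above every control, whereas FSD2 per FSD3 overlapped, at 0.624 to 0.677 in controls and 0.643 to 0.880 with doxycycline. The exact two-sided permutation p was 0.1 for each of the 4, the smallest that 3 libraries against 3 can give, and 0.2 for FSD2 per FSD3. Adjusted over the 11 shares, ratios and sums computed, these became 0.138 and 0.244. The ratios were chosen after the values had been seen.

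**Figure D3:**
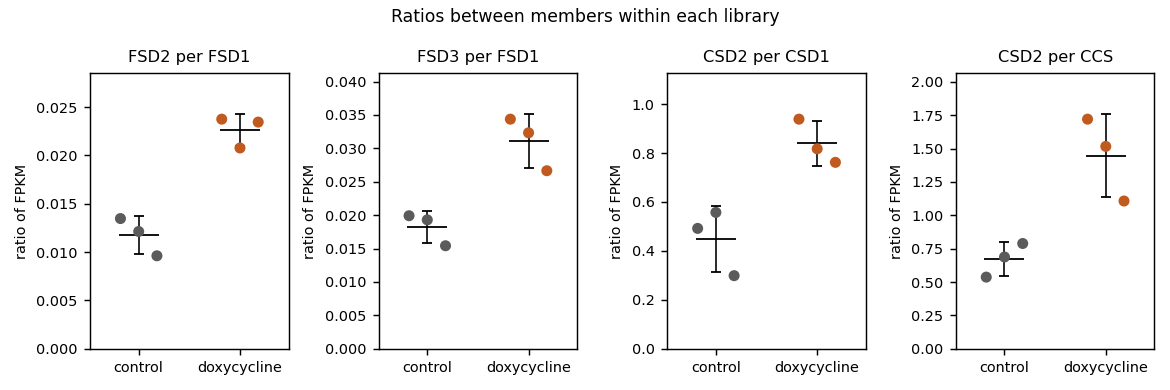
Ratio of FPKM between 2 members in each library; points are libraries, horizontal bars group means and whiskers the SD (n = 3), on linear axes that start at 0. FSD2 and FSD3 relative to FSD1, and CSD2 relative to CSD1 and to CCS, are higher in all 3 doxycycline libraries than in any control.

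The order of mean levels differed only between CSD2 and FSD3, and the change rested on doxycycline library 1. FSD3 exceeded CSD2 in every control and in doxycycline libraries 2 and 3 (39.4 against 37.2 and 32.6 against 26.5 FPKM). In controls FSD1 (942 ± 19.5 FPKM) was followed by MSD1 (108 ± 15 FPKM), the peroxisomal copper/zinc enzyme CSD3 (AT5G18100; 69.6 ± 14.2 FPKM) and CSD1 (30.8 ± 4.94 FPKM; SD, n = 3 each). FSD3, CSD2 and FSD2 came next, with CSD2 overlapping both of its neighbours. With doxycycline FSD1 (1190 ± 56.2 FPKM), MSD1 (149 ± 6.81 FPKM) and CSD3 (81.4 ± 6.43 FPKM) kept their places, while CSD1 (44.7 ± 9.54 FPKM), CSD2 and FSD3 (36.9 ± 3.72 FPKM) overlapped. CSD3 stood at 86.0, 61.0 and 61.9 FPKM without doxycycline, against 77.1, 78.2 and 88.8 FPKM with it, without separation (log2 difference 0.24, SE 0.20; limma, adjusted p = 0.438). AT3G56350, annotated as an iron/manganese superoxide dismutase, was at 0 to 0.355 FPKM and was too low to test.

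Summed over these 8 superoxide dismutase genes, FPKM was 1166, 1210 and 1203 in the controls and 1528, 1588 and 1587 with doxycycline. FSD1 supplied 79.0% ± 0.278 of that sum in controls and 75.9% ± 1.94 with doxycycline (SD, n = 3 each). FSD2 and FSD3 together supplied 2.36% ± 0.338 and 4.08% ± 0.207. Neither pair of groups overlapped (exact permutation p = 0.1 each; adjusted 0.138). The copper/zinc enzymes supplied 9.57% ± 0.957 and 10.5% ± 1.25 (exact permutation p = 0.5), and the manganese enzymes 9.09% ± 1.08 and 9.53% ± 0.624 (exact permutation p = 0.7), both within the spread between libraries. In percentage points, the FSD1 difference was -3.07, and -1.95 without doxycycline library 1. The copper/zinc difference was 0.921, with 0.227 left without doxycycline library 1 and 1.47 without control 1. The manganese difference was 0.438, with 0.116 without doxycycline library 1, and it turned to -0.186 without control 1.

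Helpers of metal insertion differed in direction. CPN20 (AT5G20720), a plastid co-chaperonin that also activates iron superoxide dismutase, stood at 230, 268 and 258 FPKM in controls 1 to 3, compared with 525, 467 and 410 FPKM in the treated libraries, above every control (log2 difference 0.88, SE 0.21; limma, adjusted p = 0.128). MTM1 (AT4G27940), a mitochondrial carrier-family protein tied to activation of manganese superoxide dismutase, stood at 5.04, 27.3 and 15.6 FPKM and at 3.74, 4.20 and 4.6 FPKM, below every control (log2 difference -1.46, SE 0.53; limma, adjusted p = 0.163). MTM1 was close to control 1 and far below the other controls.

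FSD2 and FSD3 belong to the set of proteins associated with the plastid-encoded RNA polymerase, and the 10 other genes of that set were listed with them. Of the 10, 8 were above every control, against 9.59% of all genes, 1 was below and 1 overlapped, with a median log2 difference of 0.72. After median-of-ratios scaling 7 were above (18.0% of all genes) and 0 below, with a median of 1.03. None passed with limma. FLN1 (AT3G54090), a fructokinase-like protein, stood at 9.96, 9.49 and 13.6 FPKM untreated, versus 32.0, 36.4 and 27.3 FPKM treated (log2 difference 1.46, SE 0.21; limma, adjusted p = 0.121). PTAC7 (AT5G24314) stood at 121, 48.3 and 66.7 FPKM and at 205, 210 and 174 FPKM. The plastid thioredoxin TRX z (AT3G06730) stood at 20.4, 16.9 and 25.8 FPKM and at 54.9, 45.7 and 40.1 FPKM, and PTAC14 (AT4G20130) at 26.2, 17.4 and 21.6 FPKM and at 39.5, 38.5 and 35.4 FPKM. Their log2 differences were 1.41, 1.13 and 0.79, beside 1.22 for FSD2 and 1.07 for FSD3. PTAC2 (AT1G74850), a pentatricopeptide repeat protein, was the gene below every control, at 11.3, 13.8 and 12.5 against 9.14, 10.0 and 8.28 FPKM, and its groups overlapped after median-of-ratios scaling. PTAC6 (AT1G21600) overlapped because control 1, at 80.3 FPKM, was within the doxycycline range.

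**Figure D4:**
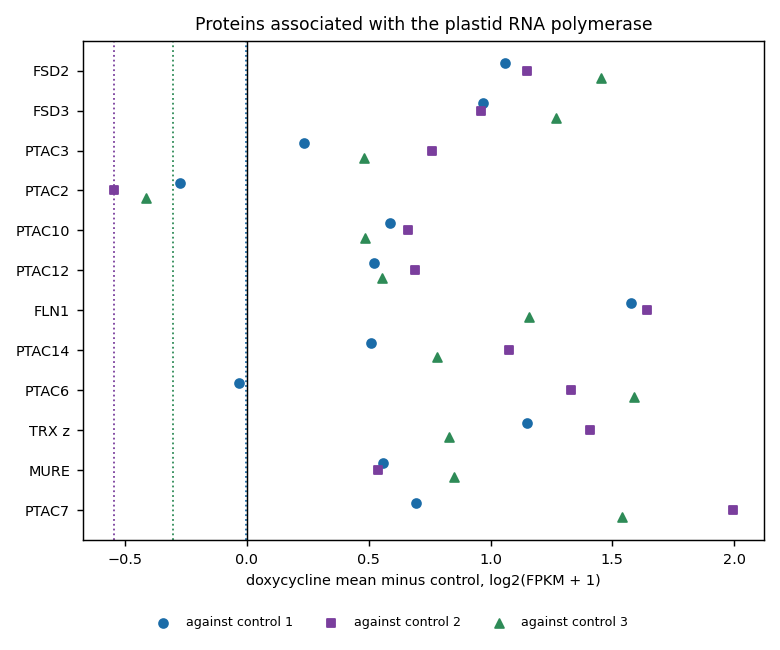
Mean of the doxycycline libraries minus each control library, in log2(FPKM + 1), for FSD2, FSD3 and the 10 other genes for proteins associated with the plastid-encoded RNA polymerase; symbols are controls 1, 2 and 3 and dotted lines the median of all genes tested against the same control. PTAC2 alone lies left of 0 against all 3 controls, and PTAC6 is near 0 against control 1.

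Among 11 listed genes of copper uptake and reduction other than COPT2, 9 were tested, 1 of them admitted by its controls alone, of which 0 were above and 3 below every control (25.7% of all genes), with a median log2 difference of -0.57. After median-of-ratios scaling 0 were above (18.0% of all genes) and 3 below (17.2%), with a median of -0.39. COPT6 (AT2G26975), a copper transporter related to COPT2, stood at 55.7, 62.3 and 80.2 FPKM without doxycycline, against 34.2, 38.6 and 38.3 FPKM with it (log2 difference -0.80, SE 0.19; limma, adjusted p = 0.129). The yellow stripe-like metal transporter YSL2 (AT5G24380) stood at 11.4, 87.3 and 69.7 FPKM and at 5.69, 6.52 and 7.96 FPKM (log2 difference -2.48, SE 0.70; limma, adjusted p = 0.138). YSL3 (AT5G53550) stood at 21.0, 49.0 and 31.7 FPKM and at 15.4, 16.2 and 16.9 FPKM. On the deposited scale control 1 was the lowest control in all 3, as for COPT2, so each gene's distance from the doxycycline libraries was smallest there. For COPT6 the log2 difference was -0.48 after median-of-ratios scaling, and control 2 was then its lowest control.

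Of 7 copper microRNA precursors 4 reached the 1 FPKM filter, MIR398C only through its controls. MIR398C is therefore left out of the count. MIR397A and MIR397B were below every control (25.7% of all genes), MIR857 overlapped and 0 were above (9.59%). MIR397A (AT4G05105) stood at 7.68, 26.4 and 10.1 FPKM in controls 1 to 3, compared with 3.59, 2.22 and 5.32 FPKM in the treated libraries (log2 difference -1.61, SE 0.47; limma, adjusted p = 0.139). MIR397B (AT4G13555) stood at 7.07, 19.5 and 9.96 FPKM and at 0.881, 3.49 and 3.05 FPKM (log2 difference -1.91, SE 0.46; limma, adjusted p = 0.129). MIR398C (AT5G14565) stood at 1.11, 2.69 and 1.21 FPKM and at 0.247, 0.441 and 0.415 FPKM, and since it passed the filter only where it was high, no test is given for it. MIR397A and MIR397B were below even control 1, by at least 1.44 and 2.03 times between the closest libraries.

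MIR857 (AT4G13554) overlapped, at 2.45, 12.7 and 4.44 FPKM untreated, versus 1.27, 3.15 and 1.64 FPKM treated. MIR398A (AT2G03445) was listed at 0.507 FPKM in control 2, at 0.453 FPKM in doxycycline library 2 and at 0 elsewhere, and MIR398B and MIR408 were listed at 0 in all 6 libraries. The precursors are short and their levels low, so few fragments stand behind each value. Mature microRNAs were not measured in these libraries.

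**Figure D5:**
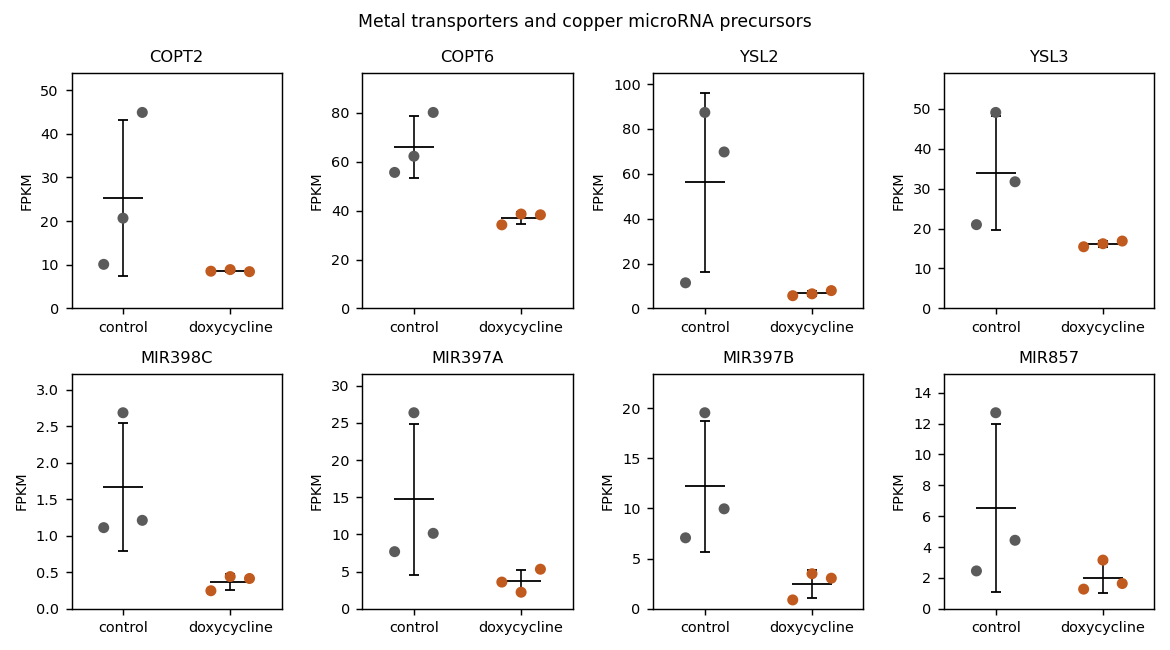
FPKM in each library of 4 metal transporter genes (upper row) and 4 copper microRNA precursors (lower row); points are libraries, horizontal bars group means and whiskers the SD (n = 3), on linear axes that start at 0. In all but MIR857 the 3 doxycycline libraries lie below every control, with control 1 the nearest. MIR398C passed the 1 FPKM filter only through its controls.

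The sequence before MIR398C is shown because it was the only miR398 precursor listed above 0 in every library. It covers 250 bases before the annotated precursor (chr5:4694444-4694693, plus strand, TAIR10.1). Capitals mark GTAC, the core letters of the copper response element that SPL7 recognises, which reads the same on both strands.
MIR398C upstream: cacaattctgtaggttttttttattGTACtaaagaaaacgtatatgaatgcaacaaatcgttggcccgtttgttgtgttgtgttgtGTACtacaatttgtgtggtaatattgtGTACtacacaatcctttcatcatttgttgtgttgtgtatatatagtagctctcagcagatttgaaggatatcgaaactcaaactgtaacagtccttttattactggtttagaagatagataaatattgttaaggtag

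GTAC occurred 3 times there, 3 times before MIR397A, 4 times before MIR397B, 5 times before MIR398B and 4 times before MIR408, where 2.76% of 326 microRNA genes had at least 3. It did not occur before MIR398A or MIR857. The MIR857 window (chr4:7878562-7878811, minus strand) takes in the mature miR397b sequence, so it lies partly within the neighbouring MIR397B precursor. Among the 9 members it occurred 2 times before CSD1, in adjoining copies, and once each before FSD1 and CCS, where 34.3% of 27443 protein-coding genes had at least 1. The other 6 members, COPT2 included, had none within this window.

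Copper chaperones, pumps and metal-binding proteins divided. Of 14 listed, 13 were tested, with 5 above every control (9.59% of all genes), 0 below and a median log2 difference of -0.06. After median-of-ratios scaling 7 were above (18.0% of all genes) and 0 below, with a median of 0.255. Without control 1 limma called 3 of the 13 higher (9.77% of all genes) and 4 lower (35.6%). AT1G53030, annotated as a COX17 copper chaperone of cytochrome c oxidase, stood at 24.4, 18.6 and 21.3 FPKM without doxycycline, against 38.9, 39.1 and 42.1 FPKM with it (log2 difference 0.88, SE 0.17; limma, adjusted p = 0.121). The other listed COX17 gene, AT3G15352, overlapped, at 5.48, 21.8 and 12.5 against 6.62, 5.77 and 6.36 FPKM. Its log2 difference was -0.80, and it was 0.16 against control 1 taken singly. Both plastid copper pumps were above every control: PAA1 (AT4G33520), of the envelope, at 15.7, 19.0 and 19.1 against 23.4, 27.2 and 23.0 FPKM, and PAA2 (AT5G21930), of the thylakoid, at 46.6, 23.3 and 20.9 against 53.4, 52.9 and 51.5 FPKM. PAA2 was close to control 1, where the sum of the green tissue markers, but not each marker, was within the doxycycline range. The part of green tissue content in the PAA2 values was not tested. The metallothionein MT2A (AT3G09390) stood at 983, 682 and 524 against 1112, 1125 and 1212 FPKM.

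In the list of copper proteins and targets of copper microRNAs, 0 of 10 tested, 2 of them admitted by their controls alone, were separated in either direction (9.59% of all genes above, 25.7% below), with a median log2 difference of 0.12. After median-of-ratios scaling 2 were above every control (18.0% of all genes), with a median of 0.42. The laccase LAC13 (AT5G07130), named as the gene of lowest p, stood at 0.825, 4.10 and 3.08 FPKM in controls 1 to 3, compared with 0.426, 0.685 and 1.1 FPKM in the treated libraries. It passed the filter only through its controls, so no test is given for it. AT3G15640, shown above with its miR398 match, stood at 24.4, 32.0 and 25.5 FPKM and at 37.8, 35.2 and 29.4 FPKM, overlapping on the deposited scale and above every control after median-of-ratios scaling, as CSD1 was.

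Of 8 listed genes for enzymes that remove the hydrogen peroxide made by superoxide dismutases, 7 were tested, 0 above (9.59% of all genes) and 2 below every control (25.7%). That share below was near the share over all genes. The median log2 difference was -0.43, and after median-of-ratios scaling it was -0.10 with 1 below. Without control 1 limma called 3 of the 7 higher (9.77% of all genes) and 3 lower (35.6%). The cytosolic ascorbate peroxidase APX1 (AT1G07890) stood at 190, 319 and 389 FPKM untreated, versus 144, 142 and 144 FPKM treated (log2 difference -1.0, SE 0.29; limma, adjusted p = 0.138). The catalase CAT3 (AT1G20620) stood at 1401, 885 and 684 FPKM and at 427, 471 and 606 FPKM (log2 difference -0.93, SE 0.34; limma, adjusted p = 0.165), and here control 1 was the farthest from the doxycycline libraries. After median-of-ratios scaling the CAT3 groups overlapped.

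The iron status list, of interest because FSD1, FSD2 and FSD3 hold iron, had 4 of 8 genes tested and 0 separated (9.59% of all genes above, 25.7% below), with a median log2 difference of -0.14. After median-of-ratios scaling 1 was above every control (18.0% of all genes) and the median was 0.12. The ferritin FER4 (AT2G40300) had the lowest p, at 35.6, 36.2 and 41.0 FPKM without doxycycline, against 43.7, 40.8 and 59.4 FPKM with it (log2 difference 0.33, SE 0.20; limma, adjusted p = 0.305). The iron importer gene IRT1 stayed between 0.036 and 1.04 FPKM in all libraries.

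Likeness of pattern was measured as the root mean square difference between the 6 log2 values of 2 genes, each taken relative to the gene's own mean, over 19035 genes. Closest to FSD1 were the ascorbate peroxidase gene APX6 (AT4G32320; 0.0385), EMB1303 (AT1G56200; 0.0400) and AT5G42670, which encodes an Agenet domain protein (0.0406). APX6 stood at 26.5, 27.6 and 26 FPKM in controls 1 to 3, compared with 30.6, 35.1 and 34.0 FPKM in the treated libraries. Closest to CSD2 were the non-coding transcript AT2G32179 (0.148), the cystatin-like AT4G15710 (0.160) and AT1G49700 (0.212), a plant protein of unknown function. AT2G32179 and AT4G15710 were low, at up to 0.583 and 0.5 FPKM in controls and up to 2.82 and 3.49 FPKM with doxycycline. Both passed the 1 FPKM filter only through the doxycycline libraries, where they were high. At such levels the added 1 FPKM also shapes the log2 values, so nothing is drawn from their likeness to CSD2.

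Reads of the members can be assigned with few exceptions. By 50-base words of the annotated transcripts, 8 of the 9 shared none with a transcript of another gene, and FSD2 shared 34 of 1686 with AT4G00651, which was at 0.165 to 1.17 FPKM. CSD1 overlaps AT1G08840, a helicase gene on the opposite strand, which was at 0.712 to 2.80 FPKM. Whether strand was kept in the libraries is not given in the sources used here.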

How the data were processed

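RNA sequencing of 3 control and 3 doxycycline libraries was analysed from 1 table of FPKM values deposited by the authors. The submitters' processing notes list the build TAIR10 and the tools Cufflinks 2.2.1 and TopHat2 2.1.0, without saying what each did. The header names no unit, and FPKM was read from the values: decimals, unequal column sums, and smallest values that fall with gene length. A listed 0 is not always an absent transcript, since Cufflinks can fail on a gene.

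The 19035 of 33532 genes that averaged 1 FPKM or more over the 6 libraries were tested as log2(FPKM + 1), a scale that understates changes of low genes, with limma 3.58.1 in R 4.3.3. The fit used a variance trend and no covariate, was two-sided, and took Benjamini-Hochberg adjustment over all genes tested with a threshold of 0.05. The fit was tested on simulated data whose spread within groups was capped. The cap was below the control SD of genes such as COPT2 (1.02) and YSL2 (1.55) on the log2 scale. That test therefore did not cover controls as unlike as these. Standard errors are moderated across genes, so that of FSD1 exceeds its own spread. Depth was estimated in single-model genes of at least 600 bases, where 50.2% to 62.4% of low values were whole fragments within 0.08 (16% by chance), so no count model was run.

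Members and lists were chosen with earlier results of these data known. Named were all members and, per list, the non-overlapping tested genes with the largest difference, up to 4, or else the gene with the lowest p, plus all microRNA precursors and other superoxide dismutases. PTAC2, PTAC6, IRT1, AT3G15640, AT3G15352, RBCS1A and RHD6 were named after their values were seen. Names, sequences and models came from RefSeq TAIR10.1 (32789 of 33532 identifiers, 99 of 99 listed genes). Alternatives were other pseudocounts, filters, scalings and variance estimates, a replicate block and left-out libraries.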

Additional observations from a re-analysis of the deposited data

How the results depend on the processing

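Under 15 alternatives the 9 genes kept direction and side of the threshold in 124 of 135 values, passed it in 9, and changed sign in 2: FSD1 at -0.08 after quantile normalization and SPL7 at 0.11 with control 1 as the only control. Among the other genes named by rule CSD3 changed sign, at -0.08 with control 1 as the only control. The cause was not tested. Genes called by limma numbered 0 with all libraries, 0 to 8637 with 1 library left out (8637 without control 1, 2 without control 3) and 2194 with control 1 as the only control. Members above every control numbered 5 to 6 and below 1 to 2 with 1 library left out (2 without control 1), and 8 above with control 1 as the only control. Genes above every control numbered 2004 to 3035 with 1 library left out (3035 without control 1, 3028 without control 2), 3426 after median-of-ratios scaling, 3267 after quantile normalization and 7039 with control 1 only. Genes below numbered 5324 to 10090 with 1 library left out (10090 without control 1) and 3183 after quantile normalization. Shares of the superoxide dismutase sum, doxycycline minus control in percentage points, were -8.30 for FSD1, 2.72 for FSD2 and FSD3, 3.34 for copper/zinc and 2.24 for manganese enzymes after quantile normalization, an alternative chosen after seeing the data. The manganese share ran from -0.186 (without control 1) to 0.754 with 1 library left out.

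With a replicate block limma called 0 genes and the lowest adjusted p was 0.129. Same-numbered libraries deviated from their group means with correlations of -0.00, -0.01 and -0.14, and differently numbered ones with -0.06 to 0.10. No pairing by number was seen, but deviations from a mean of 3 libraries cannot exclude a shared batch. FSD2 kept 1.22 and CSD2 1.40 under the block. The planned count-based tests were not run because the table holds FPKM. Low precursors and AT3G56350 are limited by depth.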
